A study of Homo sapiens with 9 samples.

Results

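The transcripts described here are the mRNAs that human cells transcribe inside their mitochondria. They were chosen by symbol: ND1, ND2, ND4, ND5, ND6, CYTB, COX1, COX2, COX3 and ATP6, which are 10 of the 58920 genes listed in the count tables and 10 of the 37 rows that belong to the mitochondrial genome. That genome encodes 13 proteins, and the other three, ATP8, ND3 and ND4L, are described beside them. The samples came from LIM1215, a human colorectal cancer cell line with wild-type RAS that is initially sensitive to cetuximab, an antibody against the epidermal growth factor receptor. LIM1215-R1 and LIM1215-R2 are resistant populations that were derived independently from it by gradual exposure to cetuximab over months. LIM1215-parental cells were kept in culture alongside without the antibody. Each resistant line is a mixed population, not a clone, and both contain a subpopulation with an HRAS mutation. RNA of all 3 lines was taken from untreated cultures, with 3 libraries per line, called technical replicates by the study. The p-values therefore measure the spread between these 9 libraries, and effects of the culture or of the harvest cannot be told apart from those of the line.

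Mitochondrial DNA is a small circle that is transcribed from both strands into long precursor RNAs by POLRMT, the mitochondrial RNA polymerase. The precursors are cut mostly at the tRNAs that lie between the genes, so that genes of the same strand start out in the same transcript and their levels come to differ through processing and decay. The proteins they encode are core subunits of the respiratory chain and of ATP synthase: ND proteins belong to complex I, CYTB to complex III, COX1 to COX3 to complex IV, and ATP6 to the proton channel of ATP synthase. ATP8 is a further mitochondrially encoded subunit of ATP synthase. All other subunits are made from nuclear genes and imported, and complex II has nuclear subunits only.

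These mRNAs have little sequence beyond their coding part, and several rely on their poly(A) tail to complete the stop codon. In hg38, 6 of the 13 coding genes ended in an incomplete stop codon, and 5 of these were among the 10 transcripts. The last 24 bases of these 5, and of COX1 and ND6, which end in codons that human mitochondrial tRNAs do not read, are shown in the sense of the mRNA, with the letters of the stop codon present in the DNA in capitals.
ND1, chrM:3307-4262: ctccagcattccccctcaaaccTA
ND2, chrM:4470-5511: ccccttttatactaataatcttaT
COX3, chrM:9207-9990: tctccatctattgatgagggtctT
ND4, chrM:10760-12137: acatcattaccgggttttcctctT
CYTB, chrM:14747-15887: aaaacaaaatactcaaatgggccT
COX1, chrM:5904-7445: gaacccgtatacataaaatctAGA
ND6, chrM:14149-14673, minus strand: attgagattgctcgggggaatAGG
COX2 (chrM:7586-8269), ATP6 (chrM:8527-9207) and ND5 (chrM:12337-14148) ended in a complete stop codon. ND6 was the only one of the 10 read from the light strand, its mRNA having the sense of the minus strand of hg38, and the other 9 had the sense of the plus strand.

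In 3 places the coding sequences overlap, and there a read can belong to either gene. ATP8 and ATP6 share 46 bases, ND4L and ND4 share 7 and ATP6 and COX3 share 1. The 2 longer overlaps are printed with 12 bases on either side and the shared bases in capitals, since they bear on the counts of ATP6 and ND4.
ATP8 and ATP6, chrM:8515-8584: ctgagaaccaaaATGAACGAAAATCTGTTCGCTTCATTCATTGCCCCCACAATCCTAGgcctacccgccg
ND4L and ND4, chrM:10748-10778: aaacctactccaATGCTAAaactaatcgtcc
Members of each pair lie on the same mRNA in the cell, so their counts measure parts of a shared molecule. How the authors' counting treated reads over an overlap is not given in the sources used here.

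The libraries held 13737416 to 18725014 counts, and each of the 10 transcripts had at least 1795 counts in every library, the lowest being ND6. All 10 were among the 19102 genes tested, and calls were made at an adjusted p of at most 0.01 in edgeR's quasi-likelihood test. Of 10 colon epithelium markers 9 were expressed, for example the keratin KRT8 at 5559.7 to 8082 CPM (counts scaled to library size). KRT20 had 0 counts, which allows at most 0.0205 CPM over the 9 libraries, provided that the counting assigned its reads to it. Against parental cells KRT8, KRT18 and VIL1 rose and CDX1, CDX2, CDH17, EPCAM and LGALS4 fell in both resistant lines. The 10 markers of other cell types summed to 10.1 to 17.1 CPM per library, with PTPRC, CD3E and COL1A2 at 0 counts. Of 4 tested, CD68 rose in LIM1215-R1 (25.0%, beside 14.0% of all genes). PECAM1, at most 0.722 CPM in any library and 15 counts over the 9, fell in both resistant lines with edgeR (25.0%, beside 13.4% and 11.6%). DESeq2 called 0 of the 4 lower in either line, with 1 lower at an unadjusted p under 0.05 in each. Transcripts without a poly(A) tail, which gauge how far poly(A) selection varied, summed to 18.7 to 22.03 CPM in parental cells, 20.2 to 29.9 in LIM1215-R1 and 24.3 to 39.3 in LIM1215-R2. Of 11 such transcripts tested, RN7SK and RN7SL1 rose in LIM1215-R2 against parental cells (18.2%, beside 12.3% of all genes). DESeq2 called 1 of the pair. RN7SK also rose against LIM1215-R1 (9.09%, beside 3.39%). In LIM1215-R1, edgeR and DESeq2 called 0 of the 11, with 1 higher at an unadjusted p under 0.05 in each. Their part in the results below was not tested.

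Together the 10 transcripts took 6.25%, 6.30% and 6.12% of all counts in the parental libraries. In LIM1215-R1 the shares were 5.82%, 6.06% and 5.83%, and in LIM1215-R2 5.85%, 5.78% and 5.71%. As shares of total counts both resistant lines lay below every parental library, with means of 6.22% ± 0.09 in parental cells, 5.90% ± 0.14 in LIM1215-R1 and 5.78% ± 0.07 in LIM1215-R2 (SD, n = 3). The LIM1215-R1 part of this depended on the scaling. As shares of the TMM-scaled library, the scale of all CPM given here, the values were 6.185%, 6.25% and 6.02% in parental cells, 5.87%, 6.15% and 5.89% in LIM1215-R1, and 5.86%, 5.77% and 5.70% in LIM1215-R2. On that scale LIM1215-R1 overlapped parental cells, its mean being 2.90% lower in place of 5.19%, while LIM1215-R2 remained below every parental library, its mean being 6.06% lower in place of 7.10%. With all 37 mitochondrial rows the means over total counts were 7.20%, 6.86% and 6.62%. In bulk RNA, fewer mitochondria-rich cells and less mitochondrial RNA per cell cannot be told apart, and a share of counts also moves with all other RNAs.

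**Figure D1:**
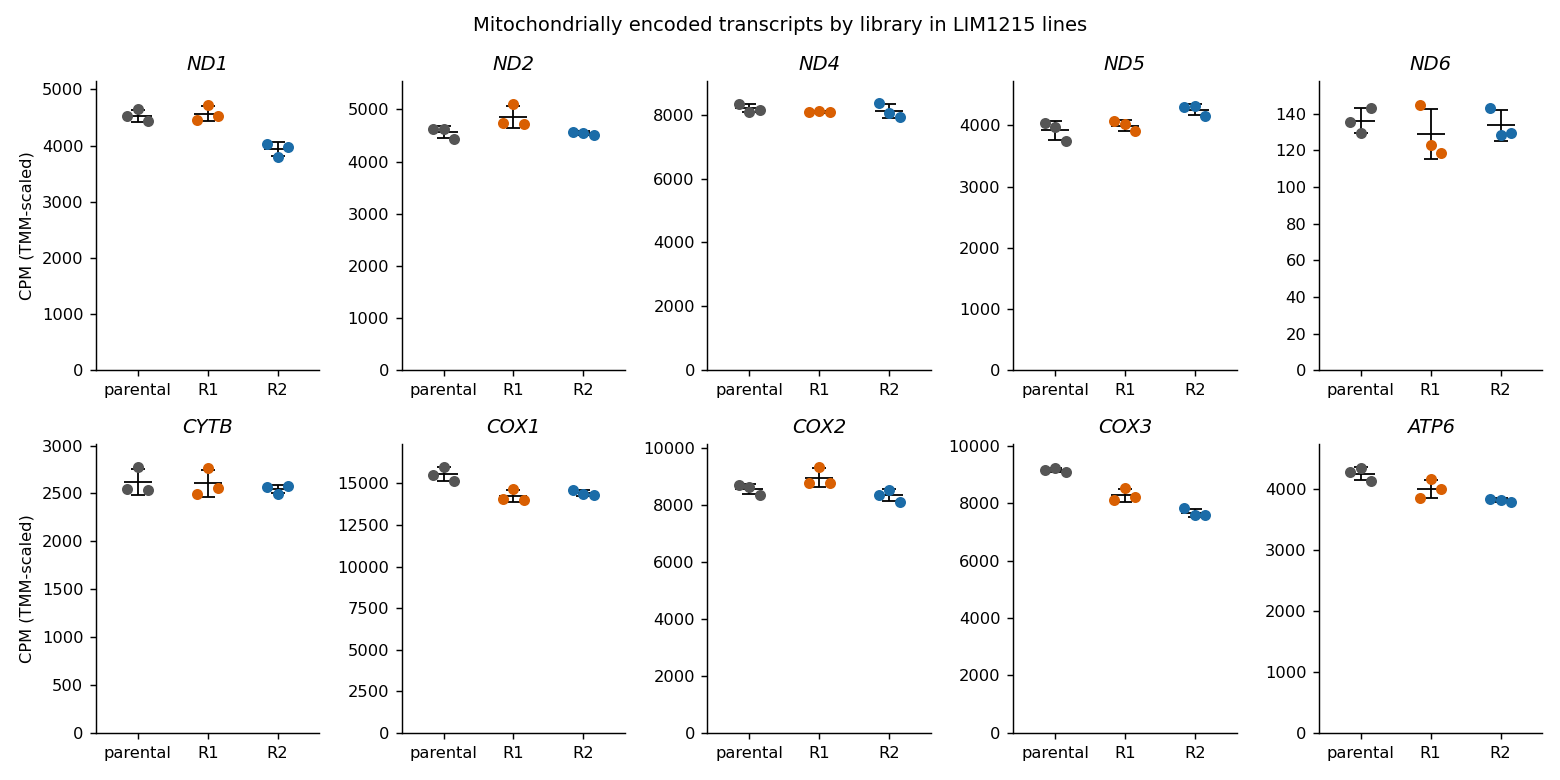
CPM (vertical axis, from 0, scaled by TMM) of each of the 10 mitochondrially encoded transcripts in the 9 libraries, with a point per library and bars for the mean ± SD of each line. COX3 lay lower in LIM1215-R1 and lowest in LIM1215-R2, ND1 was low in LIM1215-R2 only at 3804 to 4035 CPM, and ND4 overlapped in all 3 lines.

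Per length of gene, the transcripts of complex IV were the most abundant in every line. On the scale of CPM per kilobase, COX2 stood first with a mean of 12521 ± 261 (SD, n = 3) in parental cells, followed by COX3 with 11683 ± 96.1 and COX1 with 10086 ± 269. The libraries of these neighbours did not overlap in any of the 3 lines, although COX3 exceeded COX1 by 1.16 times in parental cells and by 1.04 times in LIM1215-R2. ND4 and ATP6 came next with parental means of 5949.6 ± 90.1 and 6248 ± 163, and their order was not the same in all lines: ATP6 was higher in every parental library, the ranges overlapped in LIM1215-R1, and ND4 was higher in every LIM1215-R2 library. ND1 and ND2 changed places in the same way, with ND1 above ND2 in parental cells (4740.3 ± 112 against 4383 ± 105) and below it in LIM1215-R2 (4118 ± 125 against 4357 ± 36.4). CYTB and ND5 were the lowest heavy-strand transcripts at 2297 ± 121 and 2162 ± 82.8 in parental cells. Their ranges overlapped in parental cells and in LIM1215-R1, but ND5 was above CYTB in LIM1215-R2. The 9 heavy-strand transcripts thus spanned 5.79 times from lowest to highest in parental cells, 5.94 times in LIM1215-R1 and 5.46 times in LIM1215-R2.

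ND6 stood far below the others. Its mean was 259 ± 13.0 CPM per kilobase in parental cells, 245 in LIM1215-R1 and 254.5 in LIM1215-R2. Even the lowest heavy-strand transcript of each line exceeded it by 8.34, 8.99 and 8.77 times, and the highest by 48.3, 53.4 and 47.9 times. ND6 mRNA is known to lack the poly(A) tail of the other mitochondrial mRNAs, and these libraries were made from poly(A) RNA, so its level relative to the other transcripts holds for such libraries only.

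**Figure D2:**
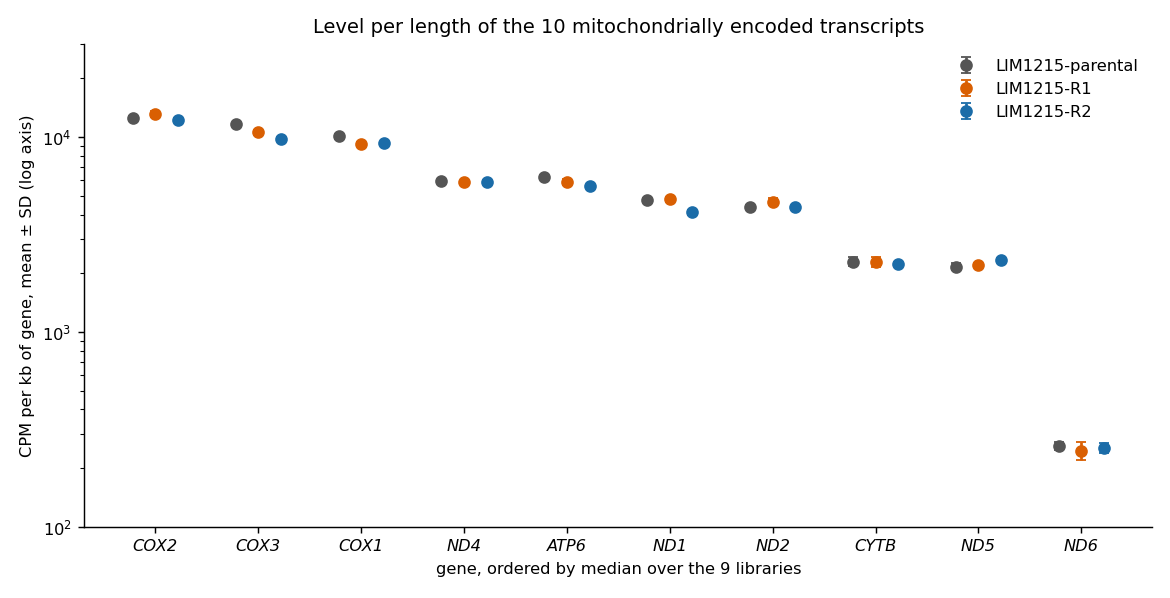
Mean CPM per kilobase of gene (vertical log axis) ± SD over 3 libraries for each transcript, ordered by the median over the 9 libraries, with a colour for each line. The 9 heavy-strand transcripts lie between about 2162 and 13087, ND6 lies at 245 to 259, and ND4 and ATP6, ND1 and ND2, and CYTB and ND5 change places between lines.

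The changes between lines were small. In LIM1215-R1 against parental cells, 2 of the 10 transcripts passed the test, COX1 and COX3, both lower, and 0 were called higher. Of all genes tested 27.3% were called, 14.0% higher and 13.4% lower, and 2 of 10 are too few to read against these shares. In LIM1215-R2, 5 passed, with COX1, COX3, ATP6 and ND1 lower and ND5 higher, beside 23.8% of all genes, 12.3% higher and 11.6% lower. Between the resistant lines 2 passed, COX3 and ND1, both lower in LIM1215-R2, beside 7.16% of all genes, of which 3.39% were higher and 3.77% lower. The counts of 0 higher transcripts come from edgeR. At an unadjusted p under 0.05, edgeR placed 2 transcripts above parental cells in LIM1215-R1 and 1 above LIM1215-R1 in LIM1215-R2, and DESeq2 called 0 higher in each of the 3 comparisons. None was a DEG, which also needed a log2 fold change of 1.5 or more in either direction, and the DEG share over all genes was 5.14%, 4.82% and 0.764%. At an adjusted p of at most 0.05, 1 transcript was called higher and 3 lower in LIM1215-R1, 1 higher and 4 lower in LIM1215-R2 and 4 lower between the resistant lines, beside 36.4%, 32.4% and 13.0% of all genes.

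Abundant genes are counted precisely, so that small changes can pass the test. Among the 66 other genes with a mean of at least 1000 CPM, 74.2% were called in LIM1215-R1 against parental cells, 77.3% in LIM1215-R2 and 40.9% between the resistant lines. Of the 10 transcripts 2, 5 and 2 were called. The sizes of the changes of the 66 genes were not compared with those of the 10. Of the 66, 45.5% were higher and 28.8% lower in LIM1215-R1, 40.9% and 36.4% in LIM1215-R2, and 6.06% and 34.8% between the resistant lines. The median log2 fold change of the 10 was -0.01 in LIM1215-R1 and -0.04 in LIM1215-R2, with all genes tested at -0.01 and -0.0037, and -0.05 between the resistant lines with all genes at -0.0011. Library ranges did not overlap for 4 transcripts in LIM1215-R1, 5 in LIM1215-R2 and 6 between the resistant lines, beside 44.0%, 42.8% and 28.0% of all genes. Both comparisons with parental cells use the same 3 parental libraries, so their values are given side by side without a measure of likeness.

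**Figure D3:**
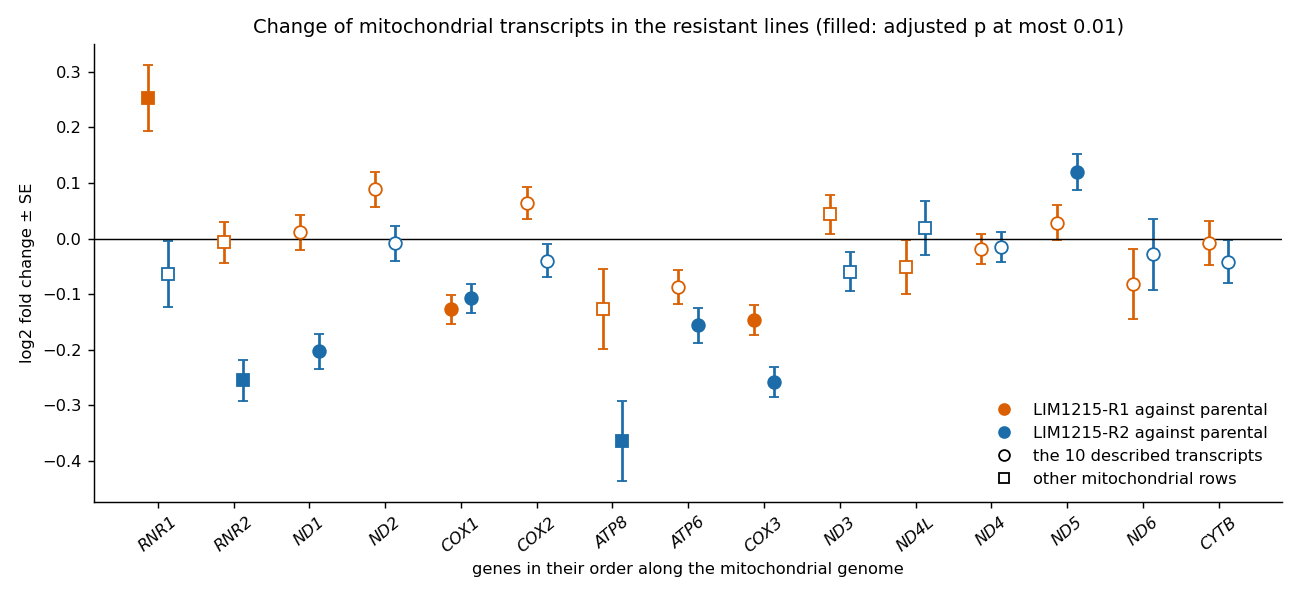
Log2 fold change ± SE (vertical axis) of each resistant line against parental cells for the 10 transcripts (circles) and 5 other mitochondrial genes (squares), in gene order, filled where the adjusted p was at most 0.01. Changes of the 10 stay between -0.26 and 0.12, with COX1 and COX3 filled in both lines and ND1, ATP6 and ND5 in LIM1215-R2 only.

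Complex IV, cytochrome c oxidase, takes electrons from cytochrome c and reduces oxygen, and its 3 mitochondrial transcripts did not move together. COX3, a core subunit without a metal centre, had 9167, 9230.1 and 9080.1 CPM in the parental libraries, 8094, 8529 and 8197 in LIM1215-R1, and 7819.6, 7594 and 7572 in LIM1215-R2. The 3 lines did not overlap, and LIM1215-R2 was lowest throughout. COX3 fell by 0.15 on the log2 scale in LIM1215-R1 (SE 0.03, adjusted p = 8.47e-05, edgeR) and by 0.26 in LIM1215-R2 (SE 0.03, adjusted p = 1.31e-08, edgeR), with the same direction in 3 of 3 libraries of each line. Both calls stood under all 19 alternatives. The difference between the resistant lines, -0.11 (SE 0.03, adjusted p = 0.00604, edgeR), was lost under 8 of the 19: total counts, DESeq2, leaving out LIM1215-R1 replicate 2 or 3 or any LIM1215-R2 replicate (adjusted p = 0.0105 to 0.0452), and leaving out parental and LIM1215-R1 replicate 2 together.

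COX1, which holds the site of oxygen reduction, was the most counted transcript. The parental libraries had 15488.5, 15996 and 15175 CPM, LIM1215-R1 had 14056, 14649.5 and 14027, and LIM1215-R2 had 14612, 14388 and 14303. Every resistant library was below every parental library, and the resistant lines overlapped each other. COX1 fell by 0.13 (SE 0.03, adjusted p = 0.000291, edgeR) in LIM1215-R1 under all 19 alternatives. In LIM1215-R2 it fell by 0.11 (SE 0.03, adjusted p = 0.00177, edgeR), but this call was lost with DESeq2 (adjusted p = 0.0187) and without parental replicate 2 (adjusted p = 0.0154) or LIM1215-R2 replicate 2 (adjusted p = 0.0128).

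COX2, the subunit that receives electrons from cytochrome c, went its own way. It had 8697, 8634 and 8361 CPM in parental cells, 8771, 9330.3 and 8754 in LIM1215-R1 and 8361, 8527 and 8109 in LIM1215-R2. LIM1215-R1 lay above parental cells without overlap, although the log2 difference of 0.06 (SE 0.03, adjusted p = 0.0953, edgeR) did not pass, and LIM1215-R2 overlapped parental cells (-0.04, SE 0.03, adjusted p = 0.35, edgeR). Between the resistant lines the difference was -0.10 (SE 0.03, adjusted p = 0.0184, edgeR), which passed with no filter on low counts or with replicate number as a block.

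ATP6 forms the channel through which protons pass ATP synthase. Its CPM were 4289.8, 4344 and 4130.1 in parental cells, 3857, 4162.5 and 3996 in LIM1215-R1 and 3844, 3827 and 3786 in LIM1215-R2. The LIM1215-R2 libraries were the lowest 3 of the 9, and LIM1215-R1 overlapped parental cells. ATP6 fell by 0.16 in LIM1215-R2 (SE 0.03, adjusted p = 0.000268, edgeR) under all 19 alternatives. In LIM1215-R1 the log2 difference was -0.09 (SE 0.03, adjusted p = 0.0307, edgeR), and it passed in 4 of the 19, for example without LIM1215-R1 replicate 2 (-0.12, adjusted p = 0.00485).

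Of the nuclear copies compared, that of ATP6 had the highest CPM relative to its gene. Mitochondrial DNA has been copied into the nuclear genome many times, and chromosome 1 holds a stretch with nearly intact copies. MTATP6P1 (chr1:633696-634376) matched ATP6 at all but 10 of 681 positions, with a longest identical run of 141 bases. The pair of 61-base stretches below shows 3 of these differences in capitals, C129T, A151C and A175G, counted from 1 at the first base of ATP6.
ATP6, chrM:8647-8707: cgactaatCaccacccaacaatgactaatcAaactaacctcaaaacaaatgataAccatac
MTATP6P1, chr1:633816-633876: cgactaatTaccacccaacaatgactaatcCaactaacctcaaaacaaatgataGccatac
The copy was listed at 299 to 375 CPM, which is 7.80% to 9.42% of the ATP6 value of the same library. MTND2P28 reached 2.89% to 3.55% of ND2, and the copies compared for the other transcripts stayed below 0.5%. No copy of CYTB was compared. Longer identical runs than that of ATP6 were found in the copies of ND2 (266 bases), COX1 (245) and ND1 (158). The 11 copies had 92.99% to 99.15% identity to their gene. Of these, 1 was lower in LIM1215-R2 than in parental cells (9.09%, beside 11.6% of all genes). It was MTATP6P1 with -0.18 (SE 0.05, adjusted p = 0.00737, edgeR). In LIM1215-R1, 0 passed with edgeR or DESeq2 (edgeR had 1 higher and 1 lower at an unadjusted p under 0.05). The MTATP6P1 call was lost under 5 of 18 alternatives, which left out parental replicate 1 or 3, LIM1215-R1 replicate 3 or LIM1215-R2 replicate 2 or 3 (largest adjusted p = 0.102), and its LIM1215-R2 range overlapped the parental range. With the copies added to the genes they resemble, ATP6 changed by -0.16 in LIM1215-R2 (SE 0.03, adjusted p = 0.000165, edgeR).

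Complex I oxidises NADH and is the entry of most electrons into the chain, and its 5 transcripts differed in both direction and size. ND1, which helps to form the quinone-binding site, had 4522, 4644 and 4429 CPM in parental cells, 4449, 4721 and 4533 in LIM1215-R1 and 4035, 3804 and 3973 in LIM1215-R2. LIM1215-R2 lay below the other lines without overlap, and these overlapped each other. ND1 fell by 0.20 in LIM1215-R2 (SE 0.03, adjusted p = 8.7e-06, edgeR) and differed between the resistant lines by -0.21 (SE 0.03, adjusted p = 2.12e-05, edgeR), both under all 19 alternatives. In LIM1215-R1 the difference from parental cells was 0.01 (SE 0.03, adjusted p = 0.832, edgeR).

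ND5, a proton-pumping subunit at the far end of the membrane arm, was the transcript that rose. Its CPM were 4037, 3966.5 and 3749 in parental cells, 4067, 4017 and 3901 in LIM1215-R1 and 4297, 4316 and 4152 in LIM1215-R2. All LIM1215-R2 libraries were above the 6 others. The rise in LIM1215-R2 was 0.12 (SE 0.03, adjusted p = 0.0042, edgeR), and it was lost under 5 of the 19 alternatives: total counts (adjusted p = 0.01002), DESeq2 (0.0113), and leaving out parental replicate 3 (0.0515), LIM1215-R2 replicate 1 (0.0233) or LIM1215-R2 replicate 2 (0.0317). Against LIM1215-R1 it was 0.09 higher (SE 0.03, adjusted p = 0.0588, edgeR), which did not pass.

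ND2 and ND4 are proton-pumping subunits as well. ND2 had 4626, 4634 and 4440.1 CPM in parental cells, 4736, 5101.5 and 4727 in LIM1215-R1 and 4577.5, 4542 and 4502 in LIM1215-R2. LIM1215-R1 was the highest line without overlap, with a log2 difference from parental cells of 0.09 (SE 0.03, adjusted p = 0.0292, edgeR) that passed only with replicate number as a block among the 19 alternatives. ND4 had 8338, 8099 and 8159 CPM in parental cells, 8068.5, 8122 and 8078.5 in LIM1215-R1 and 8359.6, 8051 and 7939 in LIM1215-R2, and all 3 lines overlapped. Its log2 differences from parental cells were -0.02 and -0.01 (SE 0.03 each), and its sign between the resistant lines, 0.0048, flipped with DESeq2 size factors.

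CYTB, the cytochrome subunit of complex III, overlapped in all lines. It had 2549, 2779.5 and 2533 CPM in parental cells, 2491, 2767 and 2559 in LIM1215-R1 and 2568, 2493 and 2577 in LIM1215-R2. The highest values were those of parental replicate 2 and LIM1215-R1 replicate 2. Its log2 differences were -0.01 in LIM1215-R1 (SE 0.04, adjusted p = 0.904, edgeR) and -0.04 in LIM1215-R2 (SE 0.04, adjusted p = 0.472, edgeR), and both changed sign under some alternatives.

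ND6, a membrane subunit of complex I, had 135.6, 129.6 and 143.3 CPM in parental cells, 144.6, 123.1 and 118.7 in LIM1215-R1 and 143.3, 128.2 and 129.2 in LIM1215-R2. The lines overlapped throughout, and the spread was widest in LIM1215-R1 (129 ± 13.8, SD, n = 3). Its log2 differences were -0.08 (SE 0.06, adjusted p = 0.357, edgeR) and -0.03 (SE 0.06, adjusted p = 0.792, edgeR). As a share of the counts on the 10 transcripts, which needs no scaling of libraries, ND6 took 0.222% ± 0.015 in parental cells, 0.216% ± 0.026 in LIM1215-R1 and 0.231% ± 0.012 in LIM1215-R2 (SD, n = 3). The exact two-sided permutation test gave p = 0.8 for LIM1215-R1, 0.4 for LIM1215-R2 and 0.4 between the resistant lines, where 3 against 3 libraries cannot go below 0.1.

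Ratios to ND4 within a library need no scaling, but they use the same counts as the CPM and are not separate evidence. ND4 itself differed little between lines. For each ND4 count there were 1.12 ± 0.02 COX3 counts in parental cells, 1.02 ± 0.02 in LIM1215-R1 and 0.944 ± 0.009 in LIM1215-R2 (SD, n = 3). COX1 gave 1.90 ± 0.07, 1.76 ± 0.04 and 1.78 ± 0.03 in the same order. The ratio of ND1 was 0.553 ± 0.018, 0.565 ± 0.015 and 0.485 ± 0.014, and that of ND5 was 0.478 ± 0.016, 0.494 ± 0.011 and 0.524 ± 0.011. In LIM1215-R2 every ratio of COX1, COX3, ATP6 and ND1 was below the parental range and every ratio of ND5 was above it. COX1 remained the largest part of the 10 in every line, at 25.3%, 23.85% and 24.98% of their counts. By this share, COX1 in LIM1215-R2 (24.93% to 25.07%) overlapped parental cells (25.04% to 25.61%). The COX2 share was 13.82% to 14.06% in parental cells, 14.86% to 15.17% in LIM1215-R1 and 14.22% to 14.79% in LIM1215-R2. That of ND2 was 7.38% to 7.48%, 8.03% to 8.29% and 7.81% to 7.89%. Both were higher in each resistant line without overlap, while the COX3 and ATP6 shares were lower without overlap. A share of the 10 also rises when others of the 10 fall. By CPM, neither COX2 (0.06 in LIM1215-R1 and -0.04 in LIM1215-R2) nor ND2 (0.09 and -0.0083) was called against parental cells.

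Among the other rows of the mitochondrial genome called against parental cells, RNR1 (0.25) changed by more than any of the 10 in LIM1215-R1. The largest of the 10 there was COX3 (-0.15). In LIM1215-R2 only ATP8 (-0.36) changed by more than COX3 (-0.26), the largest of the 10 in that comparison. Between the resistant lines RNR1 (-0.32), RNR2 (-0.25) and the threonine tRNA TRNT (-0.46) changed by more than ND1 (-0.21), the largest of the 10 there. Of the 27 other rows 18 were tested, and 1 passed as higher in LIM1215-R1 (5.56%, beside 14.0% of all genes). In LIM1215-R2, 2 passed as lower (11.1%, near the 11.6% of all genes). Against LIM1215-R1, 3 were lower in LIM1215-R2 (16.7%, beside 3.77%). RNR2, the large ribosomal RNA whose gene precedes ND1, had 6688.5, 6491 and 6268 CPM in parental cells, 6463, 6475 and 6414 in LIM1215-R1 and 4989, 5703 and 5602.5 in LIM1215-R2. It fell by 0.26 in LIM1215-R2 (SE 0.04, adjusted p = 2.64e-06, edgeR) under all 19 alternatives, with LIM1215-R2 replicate 1 the lowest library. RNR1, the small ribosomal RNA, had 808, 755 and 707 CPM in parental cells, 861, 1019 and 824 in LIM1215-R1 and 668, 734 and 770.0 in LIM1215-R2. It rose by 0.25 in LIM1215-R1 (SE 0.06, adjusted p = 0.00136, edgeR), a call lost with DESeq2 and without parental replicate 3 or LIM1215-R1 replicate 2. Mitochondrial ribosomal RNAs carry at most a short tail, and the part of poly(A) selection in their values was not tested.

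ATP8, which shares its mRNA with ATP6, had 665, 489 and 619.8 CPM in parental cells, 571, 510.5 and 545 in LIM1215-R1 and 507.5, 437 and 435.5 in LIM1215-R2. The LIM1215-R2 range overlapped the lowest parental library. ATP8 fell by 0.36 in LIM1215-R2 (SE 0.07, adjusted p = 0.00022, edgeR), the same direction as ATP6, and DESeq2 did not call it. ND3 and ND4L, the remaining complex I transcripts, did not pass in either line, with log2 differences of 0.04 and -0.05 in LIM1215-R1 and -0.06 and 0.02 in LIM1215-R2.

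Nuclear genes that transcribe and maintain the mitochondrial genome were called no more often than all genes. Of 9 transcription genes 1 rose in LIM1215-R1 (11.1%, beside 14.0% of all genes). It was TFB2M, the factor that opens the promoter for POLRMT. TFB2M had 63.1 ± 0.96 CPM in parental cells against 72.9 ± 4.17 (log2 0.21, SE 0.06, adjusted p = 0.00563, edgeR). That call was lost under 7 of the 19 alternatives. In LIM1215-R2, edgeR called 0 of the 9 and DESeq2 called 0, with 2 higher at an unadjusted p under 0.05 in each. POLRMT had log2 differences of 0.16 (SE 0.06, adjusted p = 0.0428, edgeR) and 0.01, and TFAM, which packages the DNA and starts transcription, -0.12 and -0.09, all short of the threshold. Of 17 genes of replication and maintenance 1 rose (5.88%) and 2 fell (11.8%) in LIM1215-R1, and 2 rose (11.8%) in LIM1215-R2, beside 14.0%, 13.4% and 12.3% of all genes. Single genes of the list nevertheless changed by more than any of the 10 transcripts. PRIMPOL, a primase that restarts replication, fell by 0.44 (SE 0.12, adjusted p = 0.00342, edgeR) and SLC25A36, a carrier of pyrimidine nucleotides, by 0.29 (SE 0.06, adjusted p = 0.00043, edgeR) in LIM1215-R1. RRM2B, a subunit of ribonucleotide reductase that supplies nucleotides, rose in both, by 0.55 and 0.40 on the log2 scale (SE 0.08 each, adjusted p = 5.38e-06 and 0.000482, edgeR).

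Of 24 genes for mitochondrial RNA processing and stability, 6 rose (25.0%, beside 14.0% of all genes) and 2 fell (8.33%, beside 13.4%) in LIM1215-R1. In LIM1215-R2, 3 rose (12.5%, near the 12.3% of all genes) and 1 fell, TRUB2 (4.17%, beside 11.6%). The medians were 0.11 and 0.10. PNPT1, the mitochondrial polynucleotide phosphorylase that degrades RNA, rose in both lines, from 99.7 ± 8.26 CPM in parental cells to 116 ± 5.38 in LIM1215-R1 and 135 ± 9.4 in LIM1215-R2. Its log2 changes were 0.22 (SE 0.06, adjusted p = 0.00577, edgeR), lost under 5 of the 19 alternatives, and 0.44 (SE 0.06, adjusted p = 1.82e-06, edgeR), called in all 19. LRPPRC, which stabilises the heavy-strand mRNAs and keeps them polyadenylated, had 0.08 (SE 0.04, adjusted p = 0.126, edgeR) and 0.09 (SE 0.04, adjusted p = 0.1, edgeR). Of 13 translation factors 1 rose in LIM1215-R1 (7.69%, beside 14.0% of all genes). In LIM1215-R2, 0 passed, where 2 were higher at an unadjusted p under 0.05 and DESeq2 called 0. Of 8 regulators of mitochondrial biogenesis 3 fell in LIM1215-R1 (37.5%, beside 13.4% of all genes) and 2 in LIM1215-R2 (25.0%, beside 11.6%). These counts are too few to read against the shares. GABPA, a DNA-binding subunit of nuclear respiratory factor 2, fell by 0.61 and 0.41 (SE 0.09 each, adjusted p = 3.27e-06 and 0.000509, edgeR). YY1, a transcription factor with many other targets, fell by 0.18 and 0.21 (SE 0.05 each, adjusted p = 0.00384 and 0.00121, edgeR), and lost its call under 4 and 2 of the 19 alternatives.

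The nuclear-encoded partners of the 10 proteins were called lower more often than higher. Over complexes I, III and IV and ATP synthase 73 nuclear subunits were tested. In LIM1215-R1, 2 rose (2.74%, beside 14.0% of all genes) and 10 fell (13.7%, near the 13.4% of all genes), with a median of -0.04. In LIM1215-R2, 1 rose (1.37%, beside 12.3%) and 20 fell (27.4%, beside 11.6%), with a median of -0.14. The medians over all genes tested were -0.01 and -0.0037. In LIM1215-R2, 67 of the 73 had a fold change below zero. These genes share their libraries and are not independent of each other.

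In complex IV, 3 of 11 nuclear subunits fell in LIM1215-R1 (27.3%) and 6 in LIM1215-R2 (54.5%), beside 13.4% and 11.6% of all genes. COX6C, a small subunit of the complex, had 180 ± 11.8 CPM in parental cells, 98.9 ± 8.11 in LIM1215-R1 and 99.1 ± 7.1 in LIM1215-R2. It fell by 0.86 in both lines (SE 0.06, adjusted p = 7.99e-12 and 8.79e-12, edgeR), more than any of the 3 mitochondrial COX transcripts. COX5A and COX4I1, which bind the core of the enzyme, fell by 0.18 and 0.15 in LIM1215-R1 and by 0.26 and 0.29 in LIM1215-R2. The LIM1215-R1 calls of COX4I1 and COX5A were lost under 11 and 3 of the 19 alternatives. In complex III, none of 9 passed in LIM1215-R1 by edgeR or DESeq2 (1 at an unadjusted p under 0.05 in each). UQCRB and UQCRH fell in LIM1215-R2 (22.2%, beside 11.6% of all genes).

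In complex I, 1 of 36 nuclear subunits rose (2.78%, beside 14.0% of all genes) and 4 fell (11.1%, beside 13.4%) in LIM1215-R1. In LIM1215-R2, 6 fell (16.7%, beside 11.6%). NDUFC2, NDUFA5 and NDUFB5, accessory subunits, fell in both lines, with log2 changes of -0.43, -0.44 and -0.26 in LIM1215-R1 and -0.61, -0.34 and -0.23 in LIM1215-R2. The LIM1215-R1 call of NDUFC2 held under 18 of the 19 alternatives, and the LIM1215-R2 call of NDUFB5 under 16. In ATP synthase, 1 of 17 rose (5.88%, beside 14.0% of all genes) and 3 fell (17.6%, beside 13.4%) in LIM1215-R1. In LIM1215-R2, 1 rose (5.88%, beside 12.3%) and 6 fell (35.3%, beside 11.6%). ATP5MC2, an ATP5MC gene for the rotating ring next to ATP6, fell by 0.33 and 0.28. ATP5MC3, with 228 CPM in parental cells against 128 for ATP5MC2, did not pass (-0.04 and -0.11). Nor did ATP5MC1 (-0.08 and -0.06). ATP5ME and ATP5PO fell by 0.24 and 0.19 in LIM1215-R1 and by 0.26 and 0.27 in LIM1215-R2. Their LIM1215-R1 calls held under 15 and 12 of the 19 alternatives, and the LIM1215-R2 call of ATP5ME under 16. ATP5F1D, the delta subunit of the central stalk, rose by 0.35 and 0.26, and its LIM1215-R2 call was lost under 7 of the 19 alternatives. In complex II, which has no mitochondrial subunit, 1 of 4 genes fell in each line (25.0%, beside 13.4% and 11.6% of all genes). It was the membrane anchor SDHD, by 0.28 and 0.29 (SE 0.05 each, adjusted p = 0.000157 and 0.000118, edgeR).

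**Figure D4:**
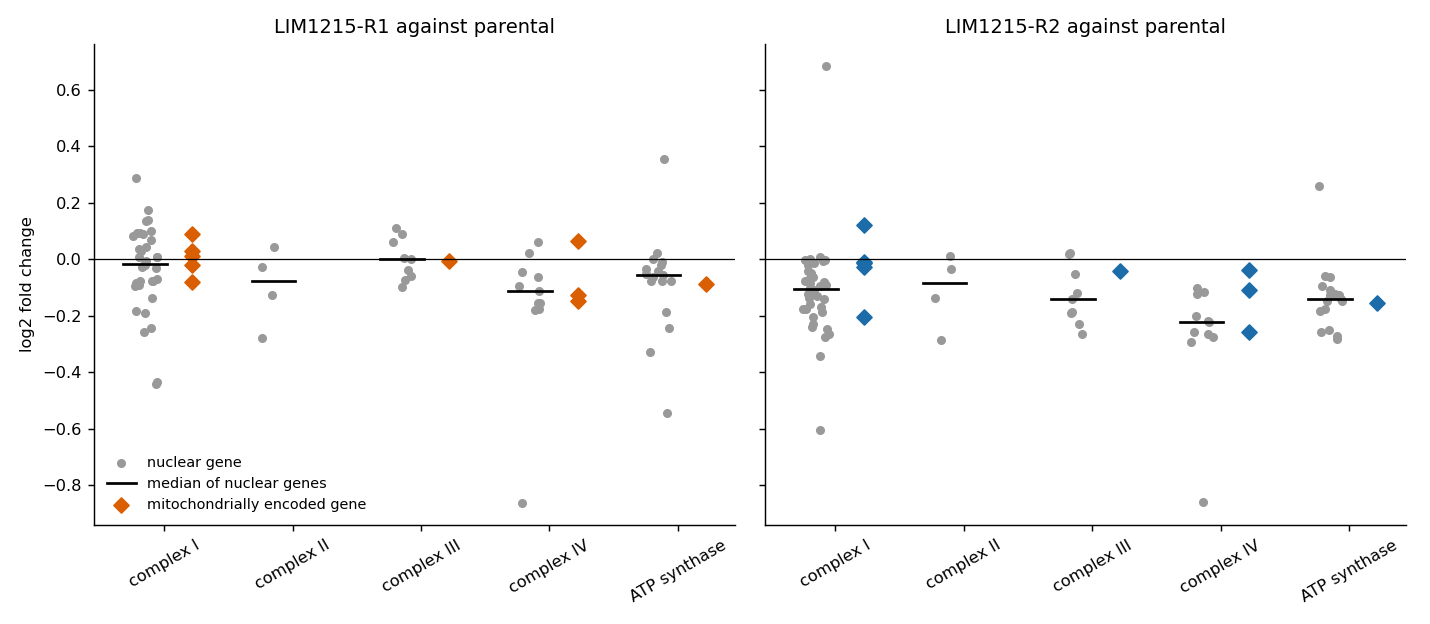
Log2 fold change (vertical axis) of nuclear subunits (grey points, with a bar for their median) and of mitochondrially encoded subunits (diamonds) by complex, for each resistant line against parental cells. In LIM1215-R2 the nuclear medians lie between -0.08 and -0.22, COX6C lies lowest in both panels at -0.86, and the grey point at 0.68 is NDUFA3, which had 0.17 CPM and did not pass the test.

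Among 2332 nuclear genes with a mean of at least 100 CPM, those closest in pattern to the mean of the 10 transcripts were SDHA, the flavoprotein subunit of complex II, and ATP5F1B, the catalytic beta subunit of ATP synthase. Likeness was the root mean square difference of log2 CPM, each centred on its mean over the 9 libraries, and was 0.0276 and 0.0291, with a median of 0.115 over all 2332 genes. For ND6 alone the closest were DYNC1LI2, DDX5 and IARS2, at 0.0487, 0.0514 and 0.0523 with a median of 0.147. The 9 points of each gene share their libraries and scaling, and genes that vary little are close to each other on this measure.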

How the data were processed

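Poly(A) RNA of 9 LIM1215 libraries was sequenced as stranded libraries. Reads were aligned by the authors with STAR (hg38) and assigned to genes with HTSeq 0.9.1 on the reverse strand, and raw counts were deposited per gene, 1 table per library, without normalization. The gene annotation and the handling of reads matching several places are not given in the sources used here. Positions and sequences came from hg38 and RefSeq (GRCh38.p14), where all 37 mitochondrial symbols matched.

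The 19102 genes whose counts summed to 10 or more were kept. Counts were scaled by TMM and fitted in R 4.3.3 with edgeR 4.0.16 (quasi-likelihood, line as group, all libraries, Benjamini-Hochberg over all genes); a call needed an adjusted p of at most 0.01. SEs were derived from the test statistic. CPM use the TMM factors. Total counts were 13737416 to 18725014, the coefficient of variation between replicates was 4.92% over all genes, and no library repeated another. The 19 alternatives were other scalings, filters, DESeq2 1.42.0, 6-library fits, the replicate block, each library left out, nuclear copies added, and parental and LIM1215-R1 replicate 2 left out together, this and the previous chosen after seeing the data. Fits were tested on simulated counts.

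Besides the 10 transcripts, named genes were ATP8, ND3, ND4L, ribosomal RNAs, POLRMT, TFAM, TFB2M, LRPPRC, up to 3 genes per list called in the same direction in both resistant lines, and the 3 closest in pattern, of which 1 is not reported here. Genes called outside this rule (CD68, PECAM1, PRIMPOL, SLC25A36, TRUB2, TRNT, UQCRB, UQCRH, RN7SK, RN7SL1, EPCAM, LGALS4, MTATP6P1) and those shown for an extreme value were named after their values were seen. So were ATP5MC1 and ATP5MC3, given beside ATP5MC2. The transcripts and gene lists were chosen with earlier results of these data known.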

Additional observations from a re-analysis of the deposited data

Results flagged for a closer look

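For 5 mitochondrial genes the effect of LIM1215-R2 differed from that of LIM1215-R1, each measured against parental cells, in edgeR's test of the difference itself. On the log2 scale LIM1215-R2 minus LIM1215-R1 was -0.11 for COX3 (adjusted p = 0.00604), -0.21 for ND1 (adjusted p = 2.12e-05), -0.32 for RNR1 (adjusted p = 0.000536), -0.25 for RNR2 (adjusted p = 2.2e-05) and -0.46 for TRNT, the threonine tRNA (adjusted p = 0.00541). ND1 and RNR2 kept this call under all 19 alternatives, RNR1 under 17, TRNT under 12 and COX3 under 11. TRNT had 9.94 ± 0.61 CPM in parental cells, 11.2 ± 0.37 in LIM1215-R1 and 8.16 ± 0.51 in LIM1215-R2 (SD, n = 3). Single libraries were not tested as outliers within their line, since the test used for this needs at least 4. Over all genes, the chi-square per degree of freedom between replicates ran from 1.89 to 6.58, the highest being between LIM1215-R1 replicates 1 and 2.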

How the results depend on the processing

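COX1 and COX3 in LIM1215-R1, COX3, ATP6 and ND1 in LIM1215-R2, and ND1 between the resistant lines kept direction and call under all 19 alternatives. Other transcripts changed sign without passing. CYTB in LIM1215-R1 was 0.00069 with DESeq2 size factors, 0.0041 with no filter and 0.00070 with DESeq2. With total counts ND1 was -0.023 and ND5 -0.0057 in LIM1215-R1. Without parental and LIM1215-R1 replicate 2, CYTB was 0.0039 and ND2 0.0033 in LIM1215-R2, and CYTB 0.011 between the resistant lines. ND4 between the resistant lines was -0.00042 with DESeq2 size factors, -0.0049 with 10 counts in every library and -0.00041 with DESeq2. The cause was not tested. Leaving out each library in turn, CYTB ranged from -0.053 to 0.037, ND1 from -0.012 to 0.031 and ND5 from -0.0024 to 0.051 in LIM1215-R1, CYTB from -0.066 to 0.0033, ND2 from -0.028 to 0.0026 and ND6 from -0.082 to 0.0101 in LIM1215-R2, and CYTB from -0.065 to 0.0114, ND4 from -0.017 to 0.019 and ND6 from -0.0025 to 0.14 between the resistant lines.

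Of transcripts called higher in LIM1215-R2, 1 became 0 with total counts and with DESeq2, and 0 to 1 when a library was left out (0 without parental replicate 3, LIM1215-R2 replicate 1 or replicate 2). Of those lower between the resistant lines, 2 became 1 with total counts, DESeq2 or both replicates 2 left out, 1 to 2 with a library left out, and 4 at an adjusted p of at most 0.05. That threshold gave 1 higher in LIM1215-R1. The DEG threshold gave 0 lower in each comparison and 0 higher in LIM1215-R2. Nuclear genes of the mitochondrial lists called, 29, 30 and 2 in the 3 comparisons, ranged over 18 to 28, 17 to 36 and 0 to 6 with a library left out, and the last was 4 with no filter. Genes called between the resistant lines over all features, 1368, ranged from 743 to 1712, with 860 without LIM1215-R1 replicate 3, 743 without LIM1215-R2 replicate 1 and 772 without LIM1215-R2 replicate 2. The TMM-scaled share of the 10 transcripts, added after seeing the data, was 6.15%, 5.97% and 5.78% in the 3 lines. With all 37 rows the shares of counts were 7.20%, 6.86% and 6.62%.

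Replicate numbers matched the libraries only in part. Correlations of deviations between same-numbered libraries ran from -0.171 to 0.488, 4 of 9 exceeded 0.1, and not every library correlated best with its own number. The replicate 1 libraries of the 3 lines correlated at 0.301, 0.19 and 0.329. LIM1215-R2 replicate 3 correlated with replicate 2 of parental cells (0.361) and of LIM1215-R1 (0.359). Whether some libraries shared a batch was not tested. With the replicate block, 1 transcript was called higher in LIM1215-R1 (ND2), 4 were lower between the resistant lines (COX2, COX3, ND1, ND2), and 7 nuclear listed genes were called there. Over all genes the block gave 5841, 5197 and 2044 calls in place of 5222, 4554 and 1368.

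For single genes 276 other values kept direction and call, 7 gained and 6 lost it, and with a library left out 244 kept, 1 gained and 10 lost it.

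Counts of technical replicates limit these results to the libraries at hand, and counting error at the lowest count of ND6 was 2.36%, against at most 0.51% for the other 9.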
